A study of Mus musculus with 4 samples.

Results

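Antigen presentation by the major histocompatibility complex (MHC) was described through 8 genes, H2-K1, H2-D1, B2m, Tap1, H2-Aa, H2-Ab1, H2-Eb1 and Cd74, which were taken by name out of the 55511 genes of the deposited counts and were all detected. Single cells came from the odour-sensing lining of the nose, the main olfactory epithelium, of 4 male C57BL/6 mice aged 8 weeks. The mice formed 1 group, were at rest, with no odorant or other treatment named, and each gave 1 library of living nucleated cells sorted by DNA dyes. The comparisons below are therefore between the cell types that the deposited annotation gives, with the mouse as the replicate (n = 4). These types are mature olfactory sensory neurons (mOSN), an earlier and a later cluster of immature neurons (iOSN1 and iOSN2), immediate neuronal precursors (INP), globose basal cells (GBC), which are the dividing progenitors of the neurons, 2 clusters of horizontal basal cells (HBC1 and HBC2), which are reserve stem cells, sustentacular supporting cells (Sus), and 2 clusters of microvillar cells (Mv1 and Mv2). Clusters of immune and of blood cells, which the annotation set aside, were described beside them.

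MHC class I molecules stand on nearly all nucleated cells and show them peptides cut from proteins made inside, which cytotoxic T cells inspect. Each consists of a polymorphic heavy chain, such as that of H2-K1 or H2-D1, and the invariant light chain encoded by B2m, and its peptides are pumped into the endoplasmic reticulum by a transporter of which Tap1 is a subunit. MHC class II molecules show peptides of ingested material to helper T cells and are typical of B cells, dendritic cells and macrophages. Their chains include those of H2-Aa, H2-Ab1 and H2-Eb1, and Cd74 encodes the invariant chain that keeps their groove closed until they reach endosomes. Interferons raise class I genes in many cell types, and interferon gamma can switch on class II genes in epithelia through the regulator Ciita. Neurons are known for low class I levels.

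The class I heavy chain genes, the class II genes and Tap1 lie together in the MHC on chromosome 17, and B2m lies apart on chromosome 2. In the GENCODE M21 annotation of GRCm38, H2-K1 occupies chr17:33996017-34000347 on the minus strand, H2-Ab1 chr17:34257689-34269419 on the plus strand, H2-Aa chr17:34282744-34287823 on the minus strand, H2-Eb1 chr17:34305867-34316674 on the plus strand, Tap1 chr17:34187553-34197225 on the plus strand, H2-D1 chr17:35262730-35267499 on the plus strand and B2m chr2:122147686-122153083 on the plus strand. Promoters of this family carry known boxes, so the 200 bases before the RefSeq start site are shown for the 6 members with an entry in the reference table that was used. Capitals mark CCAAT boxes (CCAAT or its reverse complement ATTGG), the letters GGGATTCC of a kappa B element of class I enhancers and the letters GAAANNGAA of an interferon-response core, each searched on both strands. Sequences are from RefSeq on GRCm38.p6, written 5′ to 3′ on the strand of the gene, and the H2-D1 window lies inside the longer gene model of GENCODE.
H2-K1, chr17:34000348-34000547, minus strand: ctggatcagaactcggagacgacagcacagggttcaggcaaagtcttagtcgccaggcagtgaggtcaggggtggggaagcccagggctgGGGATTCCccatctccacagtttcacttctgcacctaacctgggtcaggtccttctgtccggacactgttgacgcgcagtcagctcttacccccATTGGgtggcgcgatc
H2-D1, chr17:35262894-35263093, plus strand: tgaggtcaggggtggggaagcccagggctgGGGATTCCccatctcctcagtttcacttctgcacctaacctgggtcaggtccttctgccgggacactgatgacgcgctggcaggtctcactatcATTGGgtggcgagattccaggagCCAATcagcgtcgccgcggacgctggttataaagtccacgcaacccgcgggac
B2m, chr2:122147487-122147686, plus strand: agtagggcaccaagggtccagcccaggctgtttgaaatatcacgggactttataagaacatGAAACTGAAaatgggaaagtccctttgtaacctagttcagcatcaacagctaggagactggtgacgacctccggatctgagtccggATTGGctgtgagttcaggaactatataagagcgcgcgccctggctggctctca
Tap1, chr17:34187356-34187555, plus strand: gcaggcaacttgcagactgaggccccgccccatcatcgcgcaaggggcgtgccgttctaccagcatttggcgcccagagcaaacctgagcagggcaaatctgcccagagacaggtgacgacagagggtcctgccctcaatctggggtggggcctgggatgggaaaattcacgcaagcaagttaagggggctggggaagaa
H2-Aa, chr17:34287824-34288023, minus strand: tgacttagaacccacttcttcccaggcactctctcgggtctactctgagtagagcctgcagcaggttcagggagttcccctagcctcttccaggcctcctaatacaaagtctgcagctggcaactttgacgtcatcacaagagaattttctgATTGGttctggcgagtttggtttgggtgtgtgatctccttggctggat
H2-Eb1, chr17:34305667-34305866, plus strand: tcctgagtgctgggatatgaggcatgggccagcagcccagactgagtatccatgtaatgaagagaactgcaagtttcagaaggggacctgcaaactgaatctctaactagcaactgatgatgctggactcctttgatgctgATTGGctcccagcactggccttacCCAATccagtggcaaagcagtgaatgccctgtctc

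The CCAAT box was present in 5 of these 6 windows, in all but that of Tap1, and in 29.3% of the 32817 RefSeq promoters of the same length. GGGATTCC was present in both class I heavy chain windows, 110 bases before the start of H2-K1 and 170 bases before that of H2-D1, and in 0.670% of all promoters. GAAANNGAA was present in the B2m window, 139 bases before the start, and in 5.56% of all promoters. The search covered these letters only, so an unmarked window is not shown to lack an interferon-response element. For example, both class I heavy chain windows hold the stretch tttcacttc, whose reverse complement has the same kind of repeat in another order and was not searched. The H2-K1 and H2-D1 windows share long stretches, and so do the transcripts of these and of the related H2-Q genes. The division of UMIs among class I heavy chain genes is uncertain for this reason.

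The 4 libraries held 4746 to 6003 cell barcodes and 23157467 to 32382702 unique molecular identifiers (UMIs), each of which stands for 1 captured transcript. The retained types held 15859 cells, from 124 Mv1 cells to 10519 mature OSNs, and the immune and blood clusters 2391 and 314 barcodes. The defining markers stood in the types named after them. Omp reached 72.1 ± 3.8 UMIs per 10000 in mature OSNs, Krt5 21.3 ± 3.3 in HBC1 and 7.28 ± 0.95 in HBC2, Cyp2g1 71.4 ± 8.7 in sustentacular cells, Trpm5 6.01 ± 0.83 in Mv1, and Ascl3 19.5 ± 2.2 in Mv2 (SD, n = 4). Of the barcode sequences, 54 occurred in more than 1 library, 12 of them with the same type. Levels below are UMIs of a gene per 10000 UMIs of all cells of a type in 1 mouse, and since only the 3′ end of each transcript is counted they do not depend on gene length.

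The 2 class I heavy chains were scarce in mature OSNs and abundant in every non-neuronal epithelial type. In mice 1 to 4, H2-K1 stood at 0.0285, 0.0433, 0.0414 and 0.0273 per 10000 in mature OSNs. In Mv2, the microvillar cells that carry Ascl3 and Cftr, it stood at 4.43, 3.86, 8.60 and 4.70. In HBC1 the levels were 2.63, 1.95, 6.07 and 3.44. The ranges of mature OSNs and of these types did not overlap, and mouse 3 was the highest of the 4 in both. HBC2 held 2.88, 2.18, 4.67 and 2.53, and sustentacular cells 1.57, 1.84, 1.85 and 1.47, the narrowest spread among the non-neuronal types. Mv1, the Trpm5 microvillar cells, held 3.30, 2.35, 4.56 and 0.949. At least 1 H2-K1 UMI was found in 83.0% ± 8.9 of Mv2 cells and in 1.75% ± 0.56 of mature OSNs (SD, n = 4), at median depths of 3563 to 6311 and 4004 to 6591 UMIs per cell. After every cell had been thinned to 2000 UMIs these shares were 53.3% ± 3.2 and 0.778% ± 0.184.

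H2-D1, the other heavy chain, followed another order among the microvillar cells. It stood at 6.06, 4.25, 7.88 and 5.93 per 10000 in Mv1 and at 2.23, 1.68, 3.88 and 2.14 in Mv2, with no overlap. H2-K1 pointed the other way, and was higher in Mv2 than in Mv1 in 4 of 4 mice, though its ranges over mice overlapped. In mature OSNs H2-D1 stood at 0.0416, 0.0589, 0.0605 and 0.0472. HBC1 held 2.33, 1.59, 3.89 and 2.82, and sustentacular cells 1.70, 1.57, 1.74 and 1.72, all far above the neurons.

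B2m, the light chain that both heavy chains need, had similar lowest means in mature OSNs and INP, 0.103 and 0.108 per 10000. INP was the higher in 2 of 4 mice. Immature neurons lay within the B2m range of sustentacular cells. The B2m levels in mature OSNs were 0.0957, 0.102, 0.120 and 0.0943 per 10000, and in HBC1 2.20, 1.44, 3.55 and 3.20. Mv2 held 1.29, 1.25, 4.09 and 1.68, and sustentacular cells 0.579, 0.352, 0.805 and 0.220. Sustentacular cells thus held less B2m than either heavy chain in each mouse, whereas mature OSNs held more of it than of either heavy chain. Tap1, the transporter subunit, was the sparsest member of the class I group. It stood at 0.0131, 0.0156, 0.0135 and 0.0133 in mature OSNs and at 0.152, 0.360, 0.478 and 0.188 in HBC1. HBC1 had the highest mean of the epithelial types, though Mv1 held more in mouse 1, at 0.291.

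Ordered by mean, the immune cluster led for all 8 members. For H2-K1 it was followed by Mv2, HBC1, HBC2, Mv1, sustentacular cells, GBC, INP, blood, iOSN1, mOSN and iOSN2, and 2 of the 11 neighbouring pairs had ranges that did not overlap, iOSN1 above mOSN and mOSN above iOSN2. For H2-D1 the order was immune, Mv1, HBC1, Mv2, HBC2, sustentacular cells, GBC, blood, INP, iOSN1, iOSN2 and mOSN, and 5 pairs did not overlap. For B2m the order was immune, HBC1, Mv2, blood, GBC, HBC2, Mv1, sustentacular cells, iOSN1, iOSN2, INP and mOSN, and 2 pairs did not overlap, immune above HBC1 and iOSN2 above INP. For Tap1 the immune cluster alone stood clear of its neighbour. The ranges of the other neighbours overlapped over mice. Each mouse gave all types, however, and within mice H2-K1 was higher in 4 of 4 in the immune cluster than in Mv2 and in Mv2 than in HBC1.

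**Figure D1:**
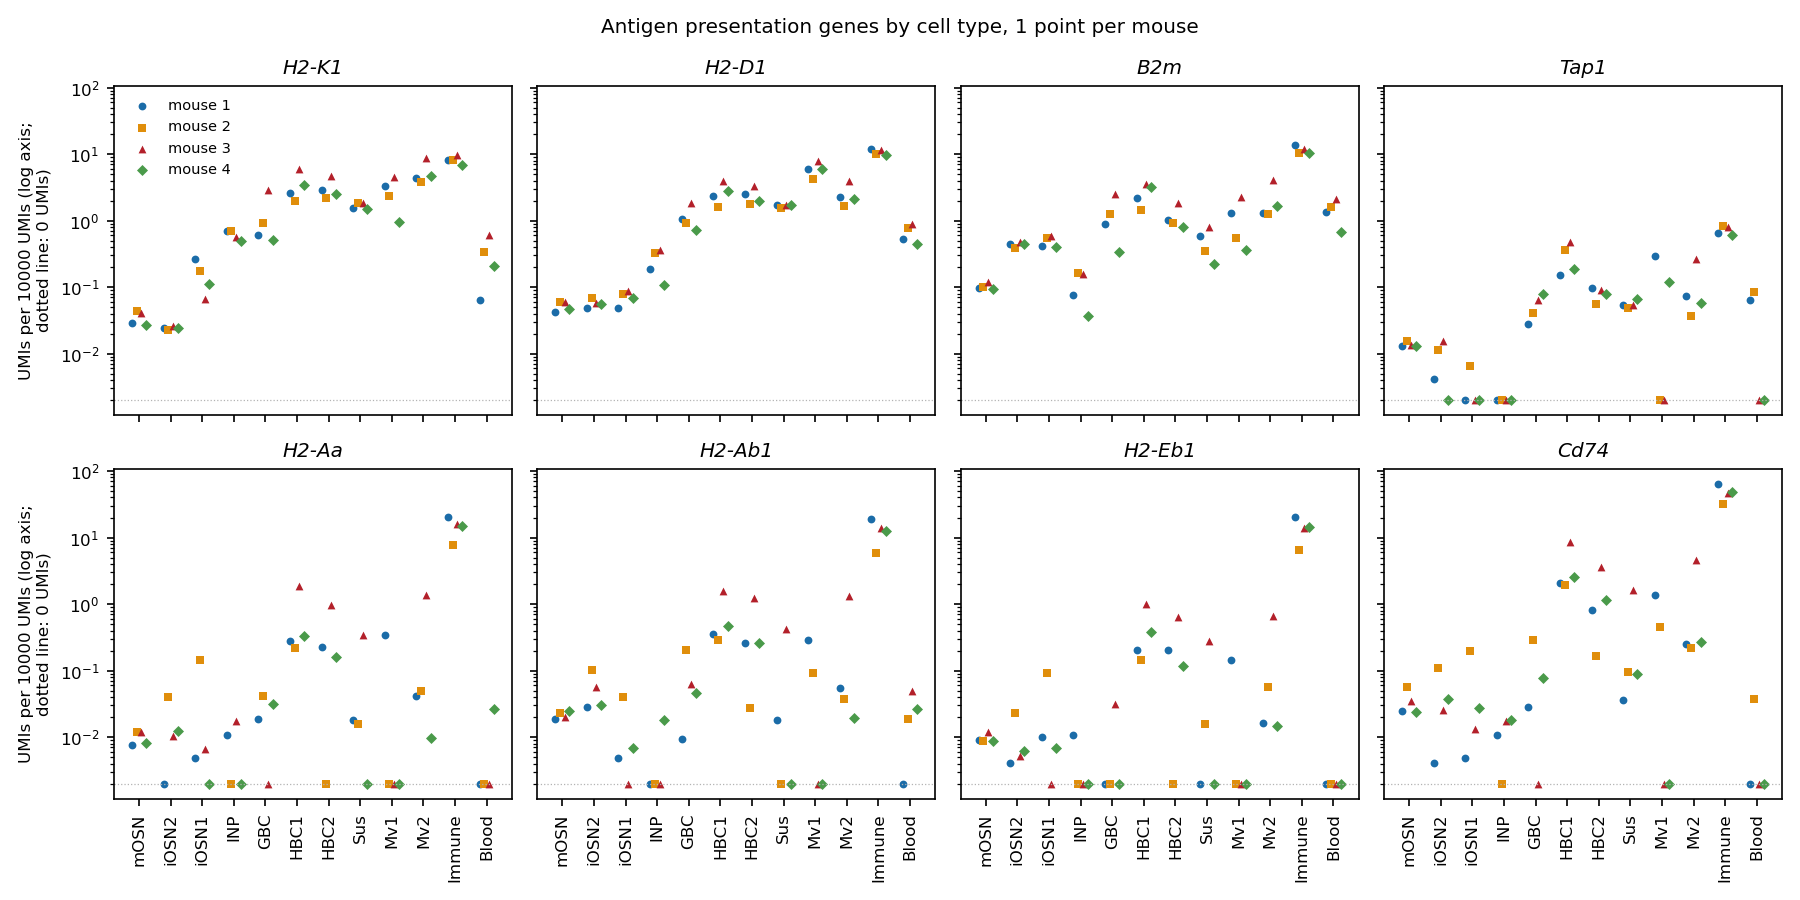
Level of each of the 8 genes in 12 cell types, as UMIs per 10000 on a log axis, with 1 point per mouse and points at 0 on the dotted line. The upper panels show H2-K1, H2-D1 and B2m lower in mature neurons than in HBC1, HBC2, Sus, Mv1 and Mv2 in every mouse, with B2m of immature neurons within the range of Sus, and the lower panels show the class II genes and Cd74 highest in the immune cluster, with mouse 3 (triangles) above the other mice in HBC1, Sus and Mv2.

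Each non-neuronal epithelial type was compared with mature OSNs on UMI sums per mouse, with the mouse as a block (edgeR's quasi-likelihood test, Benjamini-Hochberg adjustment over all 12344 genes tested, called below 0.05). All 8 members were called higher in HBC1, where 64.1% of all genes were called in either direction, in HBC2, where 77.2% were, and in Mv2, where 79.5% were. In sustentacular cells 7 were called, all but H2-Ab1, against 69.6% of all genes, and in Mv1 5 were called, H2-K1, H2-D1, B2m, Tap1 and Cd74, against 50.1%. In sustentacular cells 5 members were called without the mouse block and with DESeq2, which both lost H2-Aa and H2-Eb1. With the 2 types compared alone, all 8 members passed the count filter in HBC1 and were called. H2-Aa and H2-Eb1 did not pass it in HBC2 and in sustentacular cells. Nor did H2-Aa in Mv2, or Tap1, H2-Aa and H2-Eb1 in Mv1. These genes entered the main fit through the counts of other types, so a lower call of them was hardly possible. In the fit of dorsal against ventral mature OSNs, Tap1, H2-Aa and H2-Eb1 did not have enough counts. A lower call of these members was thus hardly possible even where they passed the filter with the 2 types alone, as in HBC1. The median change of the members in HBC1 was 5.34 on the log2 scale, beside a median of -0.16 over all genes tested. That shift over all genes was also -0.21 in Mv1, and it was -0.05 in sustentacular cells. DESeq2, which changes the scaling and the test together, gave 4612 genes higher and 3396 lower in HBC1, in place of 3747 and 4165, and 3775 and 2771 in Mv1, in place of 2808 and 3379, and the members kept their direction in both. TMMwsp, which changes the scaling alone, gave 3855 and 4028 in HBC1 and 2855 and 3272 in Mv1.

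H2-K1 was higher than in mature OSNs by 7.0 ± 0.20 on the log2 scale in Mv2 (SE, adjusted p = 3.15e-32, edgeR quasi-likelihood test), by 6.53 ± 0.29 in HBC1, by 6.51 ± 0.22 in HBC2, by 6.08 ± 0.40 in Mv1 and by 5.68 ± 0.28 in sustentacular cells. In Mv2, 3.45% of the genes tested had a larger log2 change. H2-D1 was higher by 6.55 ± 0.20 in Mv1 (adjusted p = 1.73e-30), by 5.57 ± 0.20 in HBC1, by 5.59 ± 0.14 in HBC2, by 5.32 ± 0.13 in Mv2 and by 5.10 ± 0.18 in sustentacular cells. The change of B2m was smaller and differed more between types, from 2.29 ± 0.36 in sustentacular cells to 4.53 ± 0.28 in HBC1. That of Tap1 ranged from 1.99 ± 0.65 in sustentacular cells to 4.09 ± 0.52 in HBC1. Without mouse 1, the Tap1 change in Mv1 lost its call (0.71, adjusted p = 0.813), and mouse 1 held 6 of the 7 UMIs.

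**Figure D2:**
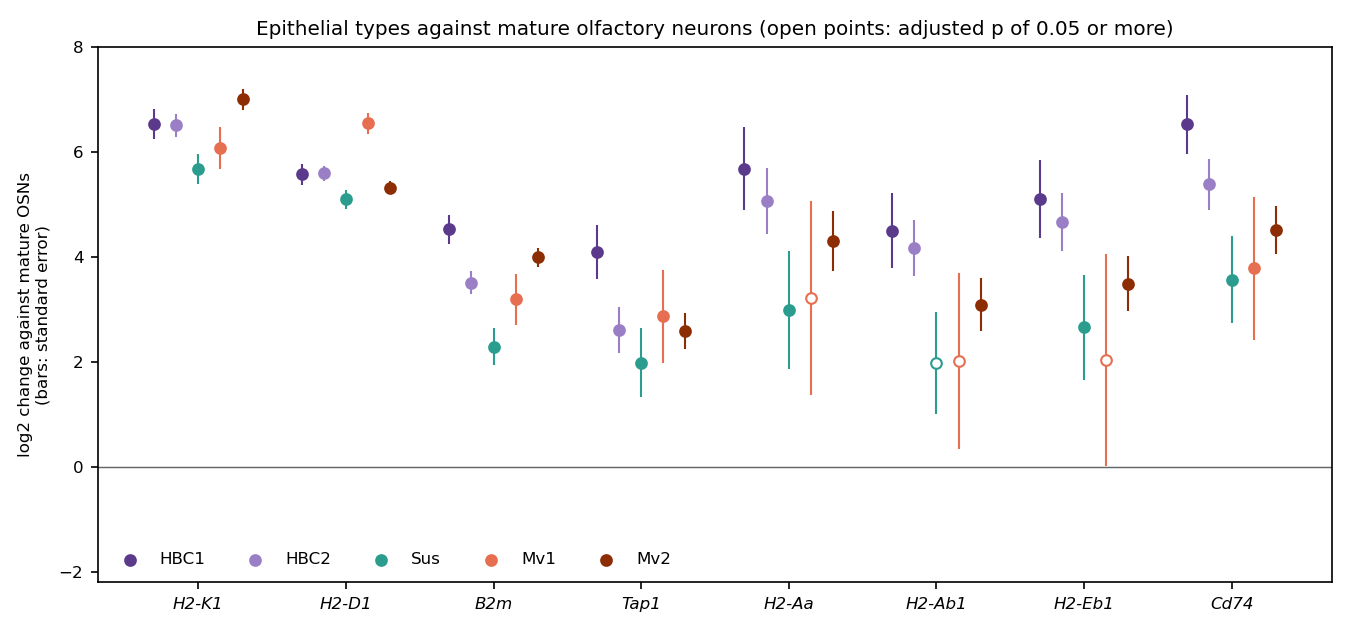
Log2 change of each gene in 5 non-neuronal epithelial types against mature olfactory sensory neurons, with a standard error derived from the F statistic of the test, and open points where the adjusted p was 0.05 or more. The class I heavy chains lie between 5.10 and 7.0 in all 5 types, whereas the class II genes have wider errors and are open for 3 genes in Mv1 and for H2-Ab1 in Sus.

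Along the neuronal lineage the members fell at different steps. H2-D1, which cells carry to the surface with B2m, stood at 1.06, 0.911, 1.85 and 0.733 per 10000 in GBC of mice 1 to 4 and at 0.185, 0.327, 0.363 and 0.109 in INP, with no overlap. The change was -2.22 ± 0.26 on the log2 scale (SE, adjusted p = 1.82e-09, edgeR quasi-likelihood test). B2m stood at 0.886, 1.24, 2.51 and 0.343 in GBC and at 0.0763, 0.164, 0.156 and 0.0364 in INP, again without overlap, and fell by 3.44 ± 0.48 (adjusted p = 9.59e-08). Tap1 had 11 UMIs in GBC and none in INP of any mouse, so it was at least 3.62-fold higher in GBC when 3 counts over the 4 mice are taken as the floor of INP. In this step 45.6% of all genes were called, and of the 8 members these 3 were, all lower. Tap1 lost its call without mouse 4 (adjusted p = 0.0635), and it did not pass the count filter with the 2 types compared alone. H2-K1 kept overlapping levels, at 0.603, 0.911, 2.90 and 0.515 in GBC and 0.697, 0.709, 0.570 and 0.491 in INP (adjusted p = 0.114), and the high GBC value of mouse 3 came from 24 cells. Without mouse 1, H2-K1 was called lower in INP (-1.18, adjusted p = 0.0159).

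From INP to iOSN1, where 41.0% of all genes were called, 3 members were called and B2m went against the heavy chains. B2m rose to 0.420, 0.544, 0.583 and 0.403 per 10000 in iOSN1, a change of 2.34 ± 0.50 on the log2 scale (SE, adjusted p = 0.000169, edgeR quasi-likelihood test), and 4.59% of the genes tested had a larger change. H2-K1 fell to 0.262, 0.172, 0.0663 and 0.111 (-1.94 ± 0.38, adjusted p = 4.92e-05). H2-D1 fell to 0.0494, 0.0795, 0.0862 and 0.0695 (-1.70 ± 0.39, adjusted p = 0.000353). The ranges of INP and iOSN1 did not overlap for any of these 3 genes.

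From iOSN1 to iOSN2, with 47.2% of all genes called, H2-K1 was the member called. It fell to 0.0247, 0.0229, 0.0259 and 0.0248 per 10000 (-2.54 ± 0.59, adjusted p = 0.000381), whereas B2m stayed at 0.441, 0.394, 0.482 and 0.452. From iOSN2 to mature OSNs, with 35.7% called, B2m was the member called and fell by 2.06 ± 0.23 on the log2 scale (SE, adjusted p = 1.01e-09, edgeR quasi-likelihood test), with 97.0% of genes above it. B2m was found in 23.3% ± 3.3 of iOSN2 cells and in 4.99% ± 1.21 of mature OSNs (SD, n = 4), and in 7.51% ± 1.19 and 1.91% ± 0.44 of those thinned to 2000 UMIs. Neither heavy chain was called at that last step.

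**Figure D3:**
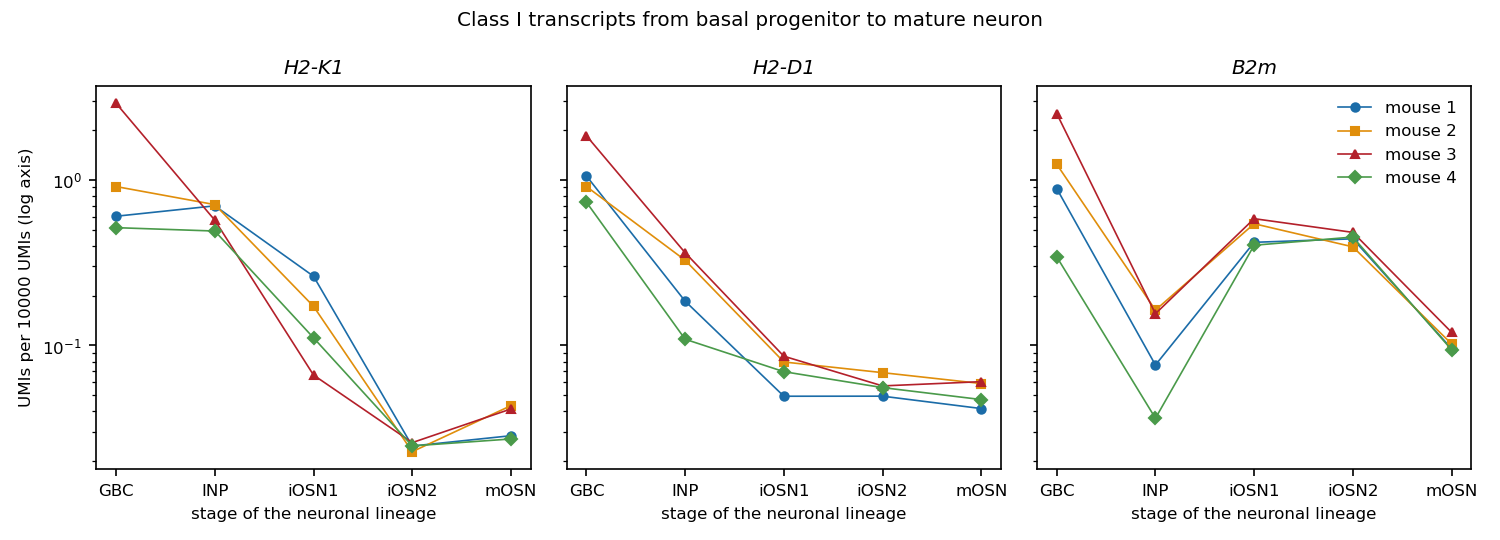
H2-K1, H2-D1 and B2m at 5 stages from globose basal cells to mature neurons, in UMIs per 10000 on a log axis, with 1 line per mouse. In all 4 mice B2m dips in INP, returns to between 0.394 and 0.583 in both immature stages and drops to between 0.0943 and 0.120 in mature neurons, while H2-K1 and H2-D1 do not return.

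Between the 2 clusters of horizontal basal cells B2m and Tap1 were called, and the Tap1 call was not steady. B2m stood at 1.03, 0.936, 1.83 and 0.805 per 10000 in HBC2, below HBC1 in each mouse, a change of -1.02 ± 0.25 on the log2 scale from HBC1 (SE, adjusted p = 0.00171, edgeR quasi-likelihood test). Tap1 stood at 0.0988, 0.0551, 0.0913 and 0.0791 in HBC2 and was lower by 1.48 ± 0.50 (adjusted p = 0.0279). These were the 2 members called, where 19.4% of all genes were, and the median change over all genes was 0.14. DESeq2 called 1016 genes higher and 1209 lower, in place of 1397 and 995. Tap1 did not pass the count filter with the 2 types compared alone. The Tap1 difference was lost without mouse 2, 3 or 4 (adjusted p from 0.0601 to 0.221) and, at a change of -1.29, when barcodes with an immune UMI were left out (0.0814). Cd74 missed the threshold at -1.15 ± 0.45 (adjusted p = 0.0705) and passed it without those barcodes (-1.44, adjusted p = 0.008), without mouse 3 (-1.28, 0.0208), without the count filter, with the 2 types alone, with thinned cells and with TMMwsp scaling. It missed it with DESeq2 (adjusted p = 0.483), without the mouse block (0.259), without the deepest 5% of barcodes (0.139) and without mouse 1, 2 or 4 (0.0538 to 0.143).

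Class II transcripts were also counted in barcodes of the epithelial types. Cd74 stood at 2.10, 1.95, 8.49 and 2.59 per 10000 in HBC1 of mice 1 to 4, at 0.823, 0.165, 3.62 and 1.15 in HBC2, and at 0.0244, 0.0563, 0.0350 and 0.0236 in mature OSNs. It was found in 41.9% ± 17.0 of HBC1 cells and in 1.43% ± 0.63 of mature OSNs (SD, n = 4), at median depths of 3318 to 5484 and 4004 to 6591 UMIs per cell. Thinned to 2000 UMIs these shares were 29.9% ± 13.7 and 0.547% ± 0.38. HBC1 was thus the epithelial type with the most Cd74 in each mouse, and its lowest mouse held more than the highest mature OSN value. H2-Aa, the class II alpha chain, stood at 0.278, 0.216, 1.84 and 0.330 in HBC1, and H2-Ab1, its beta partner, at 0.354, 0.288, 1.57 and 0.471. H2-Eb1, a further class II beta chain gene, stood at 0.203, 0.144, 0.989 and 0.377.

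In HBC1 Cd74 was higher than in mature OSNs by 6.53 ± 0.56 on the log2 scale (SE, adjusted p = 3.59e-14, edgeR quasi-likelihood test), H2-Aa by 5.68 ± 0.79, H2-Eb1 by 5.11 ± 0.74 and H2-Ab1 by 4.50 ± 0.72. Without mouse 3 these changes were 5.97, 4.80, 4.62 and 3.95, and all 4 kept their calls. In HBC2 the 4 changes ran from 4.17 ± 0.53 for H2-Ab1 to 5.38 ± 0.49 for Cd74. All 4 kept their calls there without mouse 3 too, with Cd74 at 4.69.

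Immune transcripts were measured beside these levels with 9 other immune genes, Ptprc, Tyrobp, Laptm5, Coro1a, Cd52, Fcer1g, Cybb, C1qa and C1qb. In HBC1 these genes summed to 2, 6, 2 and 2 UMIs in mice 1 to 4, and C1qb was at 0. The class II members summed to 58, 6, 189 and 40 UMIs per immune UMI in HBC1, against 1.05, 0.660, 1.03 and 0.865 in the immune cluster itself. The immune cluster mixes cells rich in class II with cells that hold little of it. The ratio in its class II-rich cells was not computed, and doublets were not called. Of the class II UMIs of HBC1, 0% to 14.8% lay in barcodes with any immune UMI, and without those barcodes the Cd74 change was 6.81 ± 0.51. In HBC2 the ratio was lower and uneven, at 2.80, 0.212, 25.0 and 4.74. There, 69.2%, 14.3%, 1.41% and 49.2% of the class II UMIs of mice 1 to 4 lay in barcodes with an immune UMI. In mouse 1, 181 of the class II UMIs lay in 1 barcode. In mouse 3, 3 of 136 HBC2 cells held 759 of the 851 class II UMIs and 386 of the 1290 class I UMIs, and had no immune UMI.

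Mouse 3 held far more class II transcripts than the others in Mv2 and in sustentacular cells. In Mv2 Cd74 stood at 0.253, 0.218, 4.54 and 0.266 per 10000 in mice 1 to 4, and H2-Aa at 0.0422, 0.0499, 1.38 and 0.00966. In sustentacular cells Cd74 stood at 0.0362, 0.0961, 1.65 and 0.0880. There, 91 of the 147 class II UMIs of mouse 3 lay in 1 barcode, and 21.1% in barcodes with an immune UMI. In both types mouse 3 stood above each of the other mice. Against mature OSNs, Cd74 was higher in Mv2 by 4.52 ± 0.46 on the log2 scale (SE, adjusted p = 3.52e-12, edgeR quasi-likelihood test) and by 2.67 ± 0.42 without mouse 3. Without mouse 3, H2-Ab1 (0.59, adjusted p = 0.31) and H2-Eb1 (1.25, adjusted p = 0.0953) lost their calls in Mv2. In sustentacular cells the members called dropped from 7 of 8 to 4 of 8 without mouse 3, the 4 class I members, beside 64.9% of all genes, and Cd74 went from 3.57 ± 0.82 to 1.18 ± 1.10 (adjusted p = 0.358). In Mv1 the class II UMIs came from mice 1 and 2, with 38 of them in 1 barcode of mouse 1, and without mouse 1 Cd74 lost its call (1.44, adjusted p = 0.73).

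The high Mv2 values of mouse 3 rested on few cells. In mouse 3, 31 of 400 Mv2 cells (7.75%) held 5 or more class II UMIs, a limit set after the values had been seen, against 4, 2 and 1 Mv2 cells in mice 1, 2 and 4. Of the 31 cells, 27 had no UMI of the 9 immune genes, which stood at 4.47 per 10000 in the 31 cells and at 0.168 in the Mv2 cells of that mouse without a class II UMI. Ascl3 stood at 23.2 in the 31 cells and at 20.4 in the others, and Cftr at 7.12 and 7.57, whereas Coch, another gene marking Mv2, was lower in the 31 cells, at 108 against 170.7. The median depth was 7738 UMIs in the 31 cells and 6182 in the others. In these cells class I was high as well: H2-K1 stood at 41.7 against 4.31 per 10000, H2-D1 at 19.9 against 1.95, B2m at 26.2 against 1.496 and Tap1 at 1.90 against 0.0644. Interferon-induced genes went with them, with Iigp1, a GTPase that acts against intracellular parasites, at 6.29 against 0.00991 and Gbp2 at 3.39 against 0.0545. Ciita, the class II regulator, stood at 0.538 against 0.00495. These cells were chosen by their class II counts, so their values are a description without a test.

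In Mv2 cells without a class II UMI, H2-K1 stood at 4.32, 3.81, 4.31 and 4.45 per 10000 in mice 1 to 4. Mouse 3 was not set apart among those cells. HBC1 of mouse 3 showed a like group, 14 of 53 cells (26.4%) with 5 or more class II UMIs, against 9, 2 and 6 cells in the other mice. Iigp1 stood at 8.42 per 10000 in the 14 cells and at 0 in the 16 HBC1 cells of that mouse without a class II UMI, and H2-K1 at 12.8 against 3.19. In HBC2 the number of such cells did not set mouse 3 apart, with 11, 0, 9 and 7 in mice 1 to 4. H2-K1 stood in them at 4.39, 25.4 and 2.85 per 10000 in mice 1, 3 and 4, against 2.61, 2.57 and 2.25 in the HBC2 cells of the same mice without a class II UMI. The basal cell marker Krt5 was lower in them, at 1.94, 5.02 and 3.48 against 8.20, 8.02 and 6.98. The 9 immune genes stood at 3.68, 0.0881 and 3.96 against 0.354, 0.257 and 0.0348. The identity of these cells was not tested. Sustentacular cells of mouse 3 held 3 such cells, of which 2 had no immune UMI and the other held 41. In all these values 1 mouse cannot be told apart from 1 library.

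**Figure D4:**
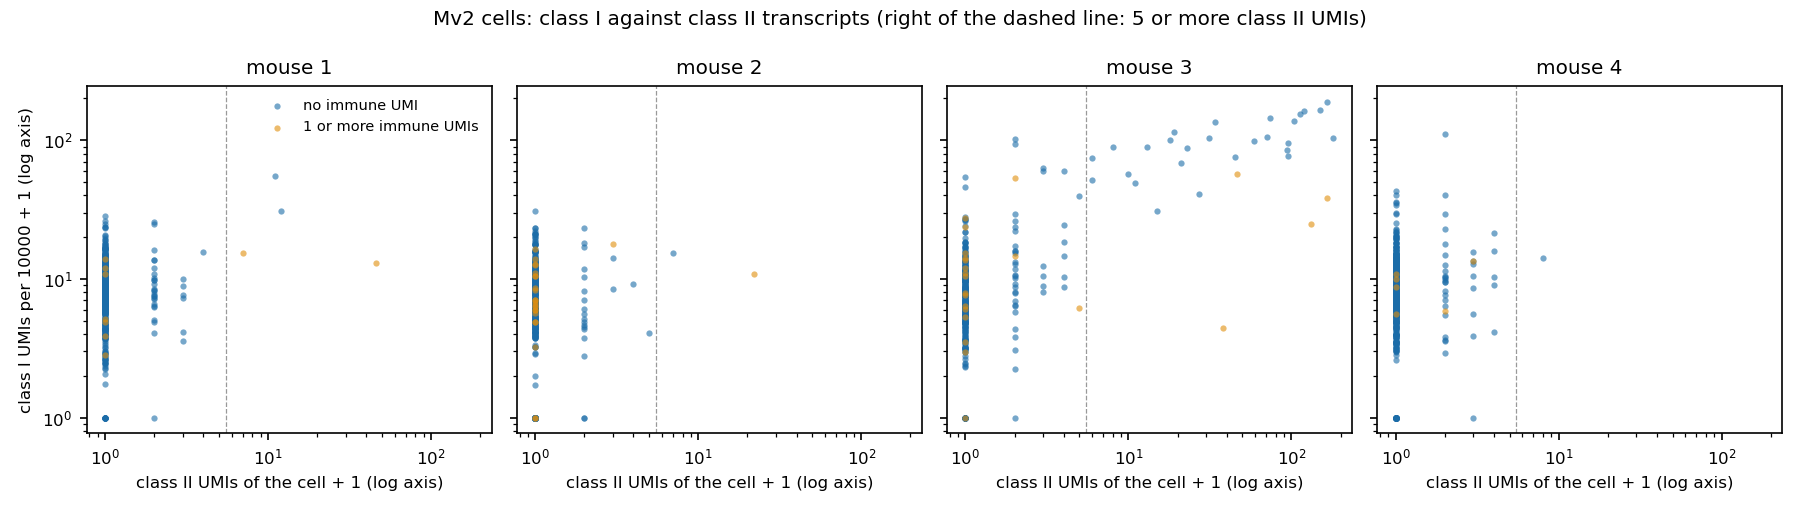
Each point is 1 Mv2 cell, with its class II UMIs plus 1 across and its class I UMIs per 10000 plus 1 upward, both on log axes, in 1 panel per mouse and coloured by whether any UMI of the 9 immune genes was found. Right of the dashed line, at 5 or more class II UMIs, mouse 3 has 31 cells with a median class I level of 88.1 and a range of 3.42 to 188, against a median of 6.86 and a range of 0 to 100.2 in its other cells, and mice 1, 2 and 4 have 4, 2 and 1.

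In neurons, class II UMIs were few and mostly scattered. In iOSN1 of mouse 2, 67 of the 72 class II UMIs lay in 1 barcode, which set the Cd74 level of 0.199 per 10000 there against 0.00494, 0.0133 and 0.0278 in mice 1, 3 and 4. Mature OSNs held 0.763 to 1.19 class II UMIs per immune UMI, a span that overlaps that of the immune cluster, 0.660 to 1.05. Of the class II UMIs of mature OSNs, 38.6%, 19.0%, 6.06% and 10.1% in mice 1 to 4 lay in barcodes with an immune UMI, against 99.6% to 100% in the immune cluster. The part of RNA from immune cells in these neuronal UMIs was not tested.

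Dorsal and ventral mature OSNs, 2733 and 6806 neurons with a deposited cluster, were compared for members within mice. Of the 8 members 5 had enough counts, where 28.1% of all 11946 genes tested were called, and Cd74 was the 1 called. Its dorsal levels were 0.0412, 0.111, 0.0366 and 0.0139 per 10000, and its ventral levels 0.0203, 0.0326, 0.0296 and 0.0297, so it was higher dorsally in 3 of 4 mice. The fitted change was 0.84 ± 0.27 on the log2 scale (SE, adjusted p = 0.0114, edgeR quasi-likelihood test). In mouse 1, 15 of the 19 dorsal UMIs came from 1 neuron, and the call held without that mouse (0.76, adjusted p = 0.0461). It was lost without the mouse block (adjusted p = 0.166), with DESeq2 (0.394), without mouse 2 (0.36, adjusted p = 0.496) and without barcodes that held an immune UMI (0.40, adjusted p = 0.39). The last 2 of these settings called other members lower dorsally, H2-D1 without mouse 2 (-0.76, adjusted p = 0.0483) and H2-Ab1 without the barcodes (-1.18, adjusted p = 0.0258). B2m stood at 0.0970 ± 0.0093 dorsally and 0.102 ± 0.019 ventrally (SD, n = 4), which overlapped. Among 42 populations of neurons that share a receptor, each with 5 or more neurons in every mouse, none of the 8 members passed the count filter, which left 2207 genes. Without that filter 8.14% of 19311 genes were called, and H2-Ab1 was the 1 member among them (adjusted p = 2.549e-05, edgeR quasi-likelihood test). A count of 1 of 8 is near that share. H2-Ab1 had 118 UMIs in all mature OSNs, and at so few counts the p-value is approximate.

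Other genes of the pathway, 55 in all of which 40 had enough counts, were read in the same fits. In the fit of dorsal against ventral mature OSNs 24 of the 55 had enough counts. The others of the 40 entered through the counts of other types, so a lower call of them against mature OSNs was hardly possible. In HBC1 32 of the 40 were called higher than in mature OSNs and 3 lower, beside 64.1% of all genes in either direction, in HBC2 33 and 3 beside 77.2%, in Mv2 32 and 5 beside 79.5%, in sustentacular cells 25 and 5 beside 69.6%, and in Mv1 23 and 5 beside 50.1%. Without mouse 1 the counts in Mv1 were 12 and 4 of 39 tested, beside 42.6% of all genes, which is near the share of the list, and with cells thinned to 2000 UMIs 14 of the genes were tested, of which 5 to 12 were called higher in these 5 types, beside 49.5% to 78.8% of all genes in either direction. The immunoproteasome cuts peptides suited to class I. Its subunit genes Psmb8, Psmb9 and Psmb10 and the proteasome activator genes Psme1 and Psme2, 5 of 5 tested, were called higher in HBC1, HBC2 and Mv2, for example by 5.42 for Psmb9 and 5.29 for Psmb8 on the log2 scale in HBC1. Of the further class I chains, all 7 tested were called higher in HBC1, led by H2-Q4 at 7.47. All 13 listed chains together held 0.0963, 0.0945, 0.115 and 0.0810 per 10000 in mature OSNs of mice 1 to 4. The 7 thus entered the fit through other types, and a lower call of them was hardly possible. Among peptide loading genes the changes were small, such as 1.73 for Erap1, which trims peptides, and 1.68 for Tap2, the partner of Tap1, and Tapbpl was lower by 0.99. Irf1, a factor that switches on class I and immunoproteasome genes, was higher by 8.98 in HBC1 and stood there at 4.33, 1.37, 2.01 and 3.15 per 10000, above the 0.865 to 1.02 of the immune cluster in each mouse.

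Of the 14 interferon response genes, 10 of the 12 tested were called higher and 1 lower in HBC1, beside 64.1% of all genes in either direction. In the fit of dorsal against ventral mature OSNs 5 of the 14 had enough counts. For the other genes tested a lower call against mature OSNs was hardly possible. The largest rises were those of Iigp1 at 8.70 and Gbp2 at 7.49 on the log2 scale. Iigp1 stood in HBC1 at 0.0253, 0, 2.63 and 0.0942 per 10000 in mice 1 to 4, and without mouse 3 it was not tested, with 7 of 9 tested genes called higher and 1 lower, beside 58.5% of all genes. From HBC1 to HBC2, where 19.4% of all genes were called, 6 of the 12 were called lower and none higher, led by Gbp7 (-3.63), Iigp1 (-3.44) and Gbp2 (-2.24). The list summed to 4.99, 2.88, 8.97 and 3.06 per 10000 in HBC1 and to 3.03, 2.23, 3.65 and 2.97 in HBC2, and mouse 3 was the highest in both. Without mouse 3, 1 of 9 tested genes was called lower, Isg15 (-1.67), beside 13.7% of all genes. Irf1 was lower in HBC2 by 1.78, and by 2.17 without mouse 3. The interferon response genes did not all move one way, and Ifit1 was called lower in Mv2 than in mature OSNs (-4.99). Ifit1 stood at 1.07, 1.02, 1.19 and 1.01 per 10000 in mature OSNs, and it was called higher at both of the last steps of the lineage, by 3.03 from iOSN1 to iOSN2 and by 1.73 from iOSN2 to mature OSNs. The class II accessory genes were mixed in direction. Of 4 tested, 3 were called higher and 1 lower in HBC1, beside 64.1% of all genes in either direction. In HBC2 2 and 1 were called beside 77.2%, in sustentacular cells 1 and 1 beside 69.6%, and in Mv1 1 and 1 beside 50.1%. In Mv2 1 and 2 were called beside 79.5%, and H2-DMa was lower there by 1.79. Outside HBC1 these counts were near or below the share of all genes. H2-DMb2, whose product helps to load class II molecules, stood at 0.378, 0.361, 0.361 and 0.376 per 10000 in mature OSNs. It was called lower in all 5 non-neuronal types, by 4.32 in HBC1.

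At the step from GBC to INP, 20 of the 40 genes were called lower and 2 higher, Cd1d1 by 1.80 and H2-DMb2 by 5.77, beside 45.6% of all genes in either direction. All 5 genes of the immunoproteasome list were among those that fell, led by Psmb8 (-4.64). Psmb8 stood at 0.141, 0.456, 0.636 and 0.0468 per 10000 in GBC, and the ranges of GBC and INP did not overlap. At the later steps 7 were called higher and 6 lower from INP to iOSN1, where 41.0% of all genes were called, 12 and 1 from iOSN1 to iOSN2, where 47.2% were, and 6 and 3 from iOSN2 to mature OSNs, where 35.7% were, with Tap2 (2.27) and H2-T22 (2.28) among those higher in mature OSNs.

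The immune and blood barcodes were divided into 26 clusters without using the members or the wider list, to see which cells held the transcripts. Of these, 2 were mOSN-like, with 139 of the 2391 barcodes of the immune cluster, and another 19 immune barcodes formed an unnamed cluster with Trpm5 among its top genes. All were kept in the levels given above for the immune cluster. Cd74 was concentrated in 3 clusters, with a mean above 100 per 10000. A cluster of 68 barcodes led by Scgb1c1 and Cyp2a5, in which C1qa, C1qb and C1qc were also among the top 10 genes, held 278, 403, 319 and 298 in mice 1 to 4 and 25.2% of all Cd74 UMIs of these barcodes. By the marker rule used for the other clusters it was macrophage-like, with 6 of 7 macrophage markers raised. The name was withheld here, because its first genes are not macrophage genes. A B cell-like cluster of 334 barcodes held 211, 210.6, 209.9 and 205, the most even of all, and 30.9% of the UMIs. A dendritic cell-like cluster of 95 barcodes, with Ccr7, Flt3 and Cd209a, held 179, 50.5, 206 and 154, so mouse 2 was low there. A macrophage-like cluster with C1qa and Apoe held 20.1, 39.5, 46.4 and 53.3.

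Class I had another distribution among the immune cells. H2-K1 was highest in an NK cell-like cluster with Gzma and Ncr1, at 25.2, 31.5, 29.0 and 24.8 per 10000, and in a T cell-like cluster, at 17.2, 17.9, 37.8 and 25.1. Both held little Cd74, with means of 10.2 and 5.20. A neutrophil-like cluster with Mmp9 and Retnlg held 1.77 ± 0.44 of H2-K1 and 0.638 ± 0.602 of Cd74 (SD, n = 4). H2-K1 was nearly absent from 2 erythroid-like clusters, of 134 and 107 barcodes, where it stood at 0 and 0.0431 ± 0.0557. B2m stood there at 0.313 ± 0.129 and 0.897 ± 0.636, above the levels of mature OSNs. The 4 haemoglobin genes took 5680 ± 699.5 of each 10000 UMIs in the deposited blood cluster, which lowers the level of every other gene in it.

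**Figure D5:**
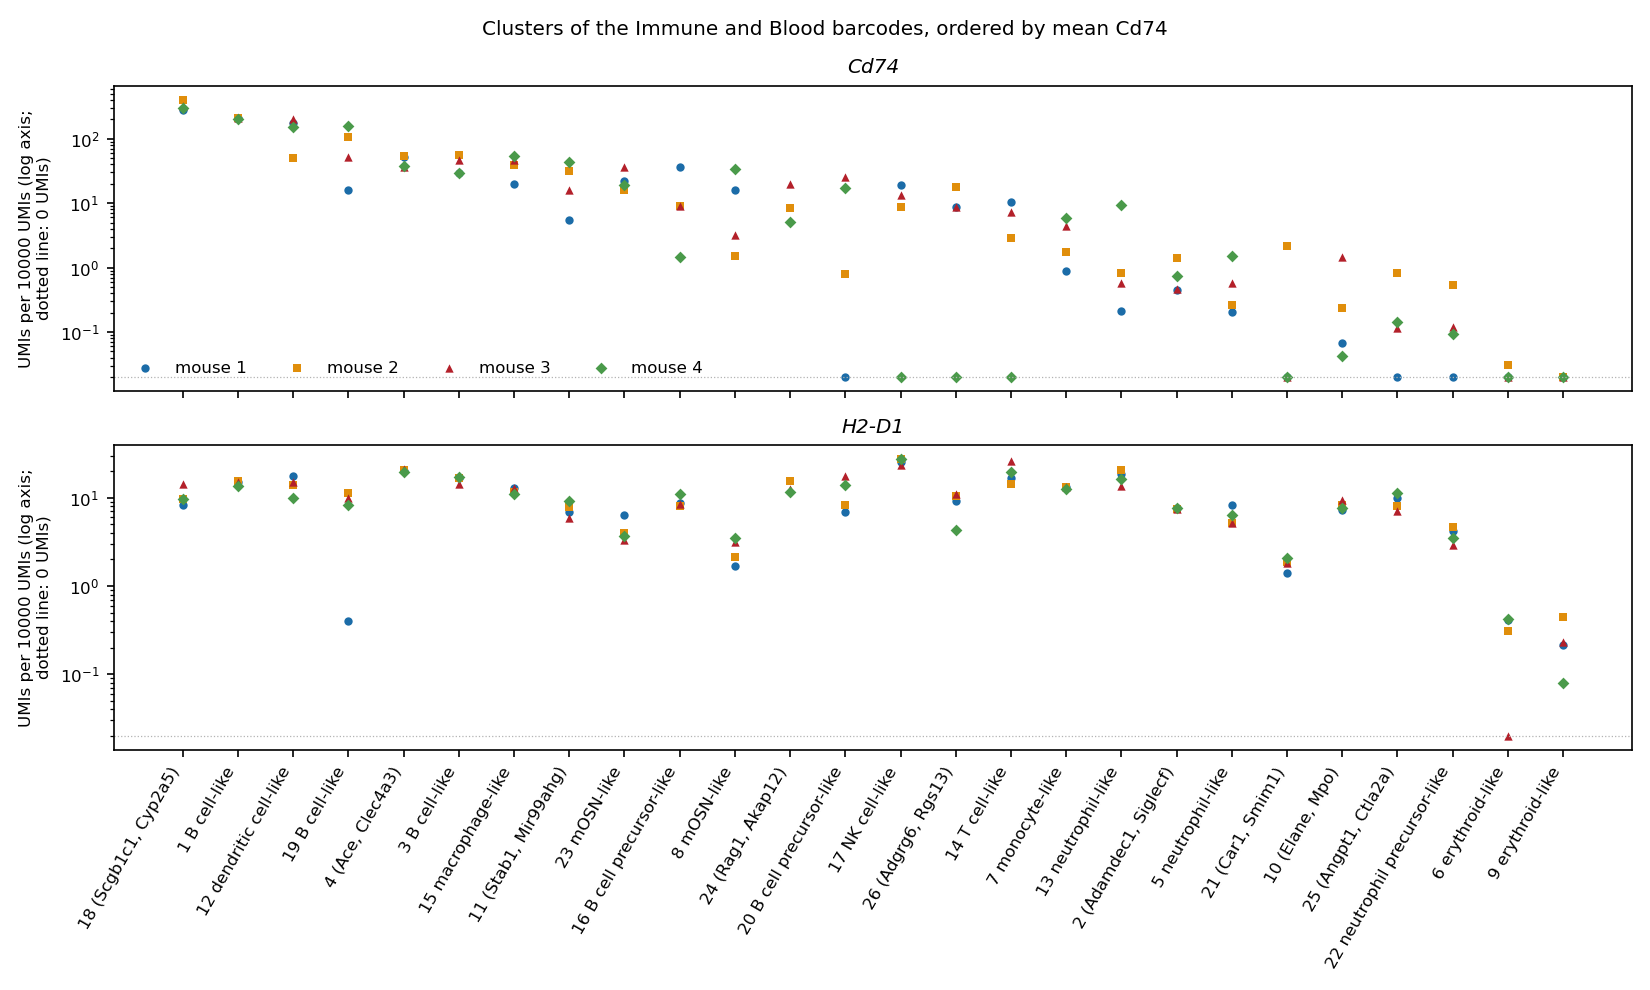
Cd74 and H2-D1 in the clusters of the immune and blood barcodes, as UMIs per 10000 on log axes with 1 point per mouse, in the order of mean Cd74. Cd74 runs from clusters above 100 to the erythroid-like clusters on or near the dotted line of 0, whereas H2-D1 stays above 1 in all but the erythroid-like clusters and 1 mouse of a B cell-like cluster.

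The genes whose pattern was most like each member were found over the 40 sums of 10 retained types and 4 mice, by Pearson's r of log2(UMIs per 10000 + 0.1) among 9983 genes. The class II members were each other's nearest, with r from 0.923 to 0.981. H2-D1 was closest to Klf4 (0.971), Suclg2 (0.959) and S100a11 (0.952), and H2-K1 to Tmem176b (0.947), Sdc4 (0.937) and Cd164 (0.936). B2m had looser neighbours, Map3k20 (0.869), Echs1 (0.827) and Irf1 (0.816), and so had Tap1, with Rab13 (0.855), Zfp219 (0.840) and Irgm1 (0.832). The sums share libraries and types, so these values describe a likeness only.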

How the data were processed

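Per the labels, cells dissociated with papain were sorted as Hoechst positive and DRAQ7 negative and sequenced with a 3′ droplet kit. The authors made the deposited UMI counts per gene and barcode with Cell Ranger 6.0.1 on GRCm38 and a modified Ensembl annotation, and deposited the cell types. The deposited cell table also holds the percent of mitochondrial UMIs and the ratio of UMIs to detected genes of each cell, as the authors computed them, which were not used. The 8 members and all gene lists were chosen with earlier results of these data known. Counts were summed per type and mouse (40 sums), scaled by TMM with the mature OSN sum of mouse 1 as reference, filtered by filterByExpr and tested with edgeR 4.0.16 in R 4.3.3, with a term for the mouse. The mouse is a block because all sums of 1 mouse come from 1 animal and library. Deviations of the types of 1 mouse correlated by 0.145, 0.0886, 0.0755 and 0.0510 on average in mice 1 to 4. The 1426 genes named Olfr or Taar were left out of the tests. The types were clustered on these cells, so p-values describe how steady a difference was over mice. Named genes were all 8 members and, per list, up to 3 called genes with the largest change, and other genes were chosen after their values were seen. Doublets were not called, and the deepest 5% of barcodes were left out in an alternative. Immune and blood barcodes were clustered with leidenalg 0.10.2 at a resolution of 1. Other alternatives were DESeq2 1.42.0, no filter, no block, each mouse left out, the 2 types alone, thinning to 2000 UMIs and barcodes without immune UMIs. TMMwsp scaling was added after seeing the data. Each SE of a log2 change was derived from the test, as the absolute change over the square root of its F statistic. It is approximate where counts are few. The fits were tested on simulated data.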

Additional observations from a re-analysis of the deposited data

Results flagged for a closer look

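In 27 of 94 groups of 4 mice with any UMI, 1 mouse lay far from the other 3 by Dixon's ratio at the 95% level, which chance does in about 1 in 20 independent groups of normally distributed values. UMI levels of sparse genes are not normal and the groups share mice and cells, so the 27 cannot be set against that rate. In 8 of the 27 only 1 mouse held any UMI of the gene, where the ratio is at its highest whatever the value, so that rate does not apply to them. Mouse 3 was the one apart in 16 of them, mouse 2 in 6, mouse 1 in 3 and mouse 4 in 2.

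Mouse 3 stood apart upward for class II in 3 types, in UMIs per 10000. In Mv2 it held 4.54 of Cd74, where the others held 0.218 to 0.266, 1.38 of H2-Aa, 1.33 of H2-Ab1 and 0.669 of H2-Eb1. In HBC1 it held 8.49 of Cd74, 1.84 of H2-Aa and 1.57 of H2-Ab1. In sustentacular cells it held 1.65 of Cd74, 0.347 of H2-Aa, 0.421 of H2-Ab1 and 0.274 of H2-Eb1. Class I set it apart in Mv2, at 4.09 of B2m and 0.262 of Tap1, and in GBC, at 2.90 of H2-K1. At low counts it was also apart for H2-Eb1, at 0.0119 in mature OSNs, from 15 UMIs, and at 0.0318 in GBC, from 1 UMI.

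Mouse 2 was apart in iOSN1, where 1 barcode held most class II UMIs, at 0.199 of Cd74, 0.146 of H2-Aa and 0.0928 of H2-Eb1 per 10000, and for Tap1 there at 0.00663. It was also apart at 0.0229 of H2-Eb1 in iOSN2 and 0.0373 of Cd74 in blood. Mouse 1 was apart in Mv1, at 0.339 of H2-Aa and 0.145 of H2-Eb1, and in INP at 0.0109 of H2-Eb1. Mouse 4 was apart at 0.0182 of H2-Ab1 in INP and 0.0263 of H2-Aa in blood.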

How the results depend on the processing

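With a mouse left out, 215 of 240 values for single members kept their direction and side of the threshold, and so did 418 of 451 under the other alternatives. The number of members called ran from 4 (without mouse 3, where 64.9% of all genes were called) to 8 in sustentacular cells and from 3 (without mouse 1, 42.6%) to 7 in Mv1 against mature OSNs, from 1 to 2 from HBC1 to HBC2 (12.8% to 17.8% of all genes) and from 2 to 4 from GBC to INP (36.5% to 41.3%), when each mouse was left out. Changes turned sign with 1 mouse left out in sustentacular cells for H2-Ab1 (-1.74 without mouse 3, up to 2.64) and H2-Eb1 (-0.50 without mouse 3, up to 3.12), in Mv1 for H2-Aa (-4.51 without mouse 1, up to 3.81) and H2-Ab1 (-0.14 without mouse 1, up to 2.64), from GBC to INP for H2-K1 (0.10 without mouse 3, down to -1.18) and from INP to iOSN1 for Cd74 (-0.16 without mouse 2, up to 2.58). None of the turned values passed the threshold. The H2-Aa value rests on the fit alone, since Mv1 of the other mice held 0 UMIs, and the turned H2-Ab1 and H2-Eb1 values rest on 1 UMI each in those types. Without the filter on low counts 6 of 8 members were called from GBC to INP, beside 19.4% of all genes. In that setting 2 were called from iOSN1 to iOSN2 (20.7%), 2 from iOSN2 to mature OSNs (15.5%) and 1 among receptor populations (8.14%). With the 2 types compared alone, 2 of 5 tested were called from iOSN2 to mature OSNs, beside 46.5% of all genes. The counts of 1 and 2 members are near these shares.

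Without the block for the mouse, no member was called between dorsal and ventral neurons (0 of 5, Cd74 at an adjusted p of 0.166), where 1560 genes were called in place of 3353. The calls of H2-Aa and H2-Eb1 in sustentacular cells and of Cd74 in Mv1 were lost too (adjusted p = 0.0747, 0.0521 and 0.0678). DESeq2 called 0 members and 1521 genes between dorsal and ventral neurons, and missed H2-Aa and H2-Eb1 in sustentacular cells (adjusted p = 0.148 and 0.211). Thinned to 2000 UMIs, 7353 genes were tested and, from GBC to INP, 2102 were called in place of 5630. From HBC1 to HBC2 1504 of 11717 genes (12.8%) were called without mouse 1 and 1576 of 5807 (27.1%) with the 2 types alone, in place of 2392 of 12344 (19.4%). Mv1, with 20 to 54 cells a mouse, and GBC, with 24 to 86, limit what can be seen of sparse genes, and values cover counting error only within a library. The cause of these changes was not tested.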
